A study of Mus musculus with 9 samples.

Results

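The epidermal growth factor (EGF) family ligands and the ERBB receptors were followed in retinas of wild-type and rd10 mice, to set the expression of amphiregulin (Areg) among that of its own gene family. The members were taken by gene symbol, as the ligands Areg, Hbegf, Ereg, Tgfa, Btc and Egf and the receptors Egfr, Erbb2, Erbb3 and Erbb4, and all 10 were found among the 22337 genes measured. WT retinas came from C57 BL/6J mice that received no treatment. The rd10 mouse carries a homozygous mutation in Pde6b, a gene of the rod phosphodiesterase, and loses its rods in the weeks after eye opening. The rd10 mice had received normal saline (NS) or extracellular vesicles of mesenchymal stem cells (MSC-EVs), 1 μl into each eye at postnatal day (P) 14 and again at P21, and all retinas were taken at P28. The paper says that the vesicles came from human umbilical cord cells. Each of the 3 groups had 3 libraries of poly(A)-selected RNA from whole retina. The WT mice were not injected, so that the genotype and the injections cannot be told apart between WT and rd10, and no uninjected rd10 retina was among the samples. The labels do not say that the libraries came from separate animals, so p-values measure the spread between these libraries.

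EGF family ligands are made as membrane-bound precursors that metalloproteases such as ADAM17 and ADAM10 cut from the cell surface. The released ligands bind receptor tyrosine kinases of the ERBB family, which pair with one another and signal through RAS and ERK, PI3K and AKT, and STAT proteins. Areg, Tgfa and Egf bind the EGF receptor, while Hbegf, Btc and Ereg also bind ERBB4. ERBB2 binds no known ligand and serves as the preferred partner of the other receptors, ERBB3 has little kinase activity of its own, and ERBB3 and ERBB4 are receptors of the neuregulins. In the retina, Müller glia are known to respond to EGF receptor ligands after injury.

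Areg, Ereg and Btc lie side by side in the mouse genome. In the GRCm38 build with the GENCODE M21 annotation, Areg covers chromosome 5 from 91139599 to 91148432, Ereg from 91074622 to 91093646 and, on the opposite strand, Btc from 91357261 to 91402994. Together with Epgn, the epigen gene at 91027464 to 91035215, they are the only 4 protein-coding genes of the measured table within this block of 376 kb.

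RefSeq promoters, each from 250 bases before to 50 bases after a gene's start in GRCm38.p6, were available for 7 of the 10 members (Areg, Tgfa, Btc, Egf, Egfr, Erbb2 and Erbb4). The stretch of the Areg promoter at chr5:91139527-91139556 on the plus strand is shown because it carries a cyclic AMP response element, the palindrome TGACGTCA, at 54 to 61 bases before the start, written in capitals.
Areg: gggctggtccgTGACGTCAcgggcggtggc
These letters, searched on both strands, occurred in none of the other 6 promoters and in 1.79% of the 32851 promoters in the RefSeq set. Areg also held the TATA box letters TATAAA at 26 to 31 bases before its start, found in 13.6% of all promoters, and the GC box GGGCGG, found in 35.7% of all and also in the promoters of Tgfa and Egfr. The AP-1 letters TGANTCA, found in 7.81% of all promoters, were in none of the 7. These matches describe the letters of the window and not binding.

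The other members lie apart in the same build: Hbegf on chromosome 18 from 36504927 to 36515805, Tgfa on chromosome 6 from 86195223 to 86275719, Egf on chromosome 3 from 129677565 to 129755316, Egfr on chromosome 11 from 16752203 to 16918158, Erbb2 on chromosome 11 from 98412470 to 98437716, Erbb3 on chromosome 10 from 128567523 to 128589652 and Erbb4 on chromosome 1 from 68032186 to 69108059. Stretches of 50 bases in the transcripts were checked against all other genes, and none of Areg, Hbegf, Ereg, Tgfa, Btc, Egf, Erbb2, Erbb3 and Erbb4 and 0.15% of Egfr were shared with another gene. Erbb2 is overlapped by Mien1 on the opposite strand, and since the sources used here do not say whether strand was used in counting, reads of these overlapping ends cannot be told apart.

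The counts of the libraries summed to between 19491717 and 62532343, and one count stood for 0.0155 to 0.05 CPM, the unit used below, which is counts scaled to a common library size with TMM factors. MSC-EVs replicate 3 was the deepest library. The summed expression of 4 Y-linked genes was 183 and 189 CPM in MSC-EVs replicates 1 and 2 and at most 0.5 CPM in the other 7 libraries, so the groups were not matched in the sex of the animals, and members are given with and without them where MSC-EVs enter. Without them 1 MSC-EVs-treated library, replicate 3, is left, and the fit then assumes that it varies like the other group. In the comparison of the rd10 groups, the common biological coefficient of variation was 12.5%, against 7.97% between WT and NS-treated rd10. The 9 rod markers summed to 75100 to 80400 CPM in WT, 15100 to 21800 CPM with NS and 15900 to 22100 CPM with MSC-EVs, with none at 0. The 8 Müller glia markers summed to 4400 to 4710, 5390 to 6240 and 4590 to 4970 CPM, the 9 gliosis markers to 374 to 394, 1980 to 2590 and 2610 to 3670 CPM, and the 10 microglia and macrophage markers to 32.7 to 35.5, 211 to 270 and 185 to 337 CPM, in the same order and with none at 0. The labelled tissue, retina, was thus borne out by its markers in every library, and the part of these shifts in the results below was not tested. In bulk RNA, fewer cells of a type and less RNA per cell cannot be told apart.

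Between WT and NS-treated rd10 retinas, the question was which members of the family moved with retinal degeneration. Differentially expressed means here a Benjamini-Hochberg adjusted p under 0.05 together with a log2 fold change of 1 or more in either direction. Of the 9 members that passed the filter on low counts, 4 were differentially expressed and all 4 were higher in NS-treated rd10, namely the ligands Areg and Tgfa and the receptors Egfr and Erbb3. Among all 14644 genes tested, 12.7% were differentially expressed and 9.16% were so and higher. Without the limit on the fold change, 8 of the 9 rose, Egf being the exception, where 61.3% of all genes had an adjusted p under 0.05 and 31.2% were higher. All 3 NS-treated libraries lay above all 3 WT libraries in each of the 9 members, which was so in 33.7% of all genes tested. The median log2 fold change of the 9 was 0.72, against 0.01 over all genes.

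**Figure D1:**
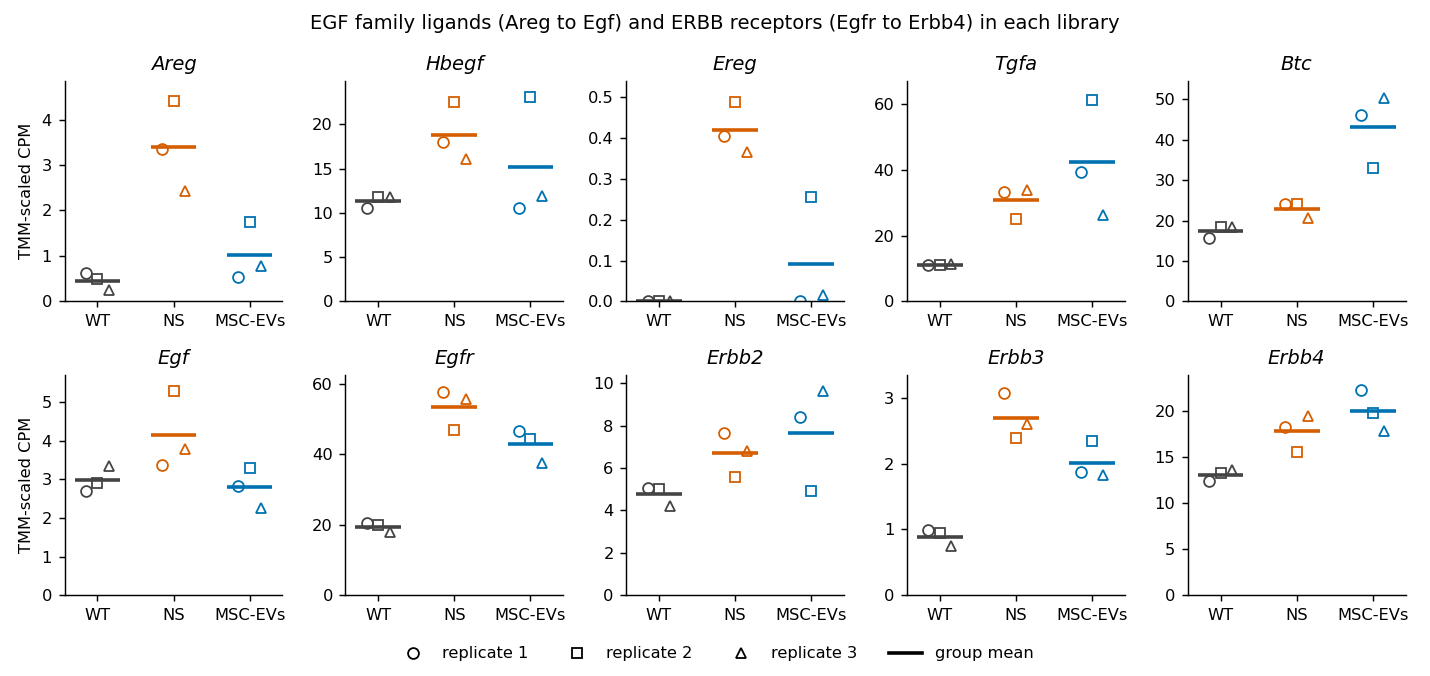
Expression of the 10 members in each library, as CPM scaled by TMM factors on a linear axis from 0 (circles, squares and triangles are replicates 1, 2 and 3, bars are group means of 3 libraries). Every NS-treated library (orange) lies above every WT library (grey) in all panels, while with MSC-EVs (blue) Areg lies below and Btc above the NS-treated libraries, and replicate 2 is the highest of its group in 6 of the 10 panels.

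Areg, the ligand that the study followed further by qPCR, was at 0.628, 0.492 and 0.25 CPM in WT and at 3.35, 4.41 and 2.43 CPM in NS-treated rd10, from 14, 11 and 5 against 99, 90 and 53 counts. The lowest NS-treated library was thus well above the highest WT library. Areg was 7.24-fold higher, a log2 fold change of 2.86 (standard error, SE, 0.35, edgeR adjusted p = 1.98e-05), and had the largest log2 fold change of the 9 members tested. It passed the filter on low counts only through the NS group, since WT replicate 3 had 5 counts. With at least 10 counts required in every library, Areg was not tested.

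Tgfa, which encodes transforming growth factor alpha, was at 11, 11.1 and 11.4 CPM in WT and at 33.3, 24.9 and 33.8 CPM in NS-treated rd10. The WT libraries were nearly level, and each NS-treated library exceeded all of them. Tgfa was 2.74-fold higher, a log2 fold change of 1.46 (SE 0.12, edgeR adjusted p = 6.63e-07).

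Hbegf, which encodes heparin-binding EGF-like growth factor, was at 10.5, 11.8 and 11.8 CPM in WT and at 18, 22.5 and 16.1 CPM in NS-treated rd10. The groups did not overlap, and the rise was 0.72 on the log2 scale (SE 0.13, edgeR adjusted p = 0.00033), below the limit on the fold change. Betacellulin (Btc) was at 15.7, 18.5 and 18.3 CPM in WT and at 24.1, 24.2 and 20.5 CPM with NS, again without overlap. Its rise of 0.39 on the log2 scale (SE 0.10, edgeR adjusted p = 0.00509) was the smallest of the 8 members that rose, and it missed the threshold when libraries were scaled on markers of inner retinal neurons (0.20, edgeR adjusted p = 0.206).

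Egf itself was at 2.69, 2.91 and 3.35 CPM in WT and at 3.38, 5.29 and 3.8 CPM with NS, so that the lowest NS-treated library was barely above the highest WT library. Its log2 fold change of 0.47 did not pass the test (SE 0.21, 95% interval 0.01 to 0.92 before adjustment, edgeR adjusted p = 0.0703). It passed with library totals alone (0.65, edgeR adjusted p = 0.0166), with limma on log2(FPKM + 1) and log2(FPKM + 0.1) (limma adjusted p = 0.0312 and 0.0358) and without NS replicate 1 (0.60, edgeR adjusted p = 0.0315).

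Epiregulin (Ereg), the neighbour of Areg, had 0, 0 and 0 counts in WT and 12, 10 and 8 counts, or 0.406, 0.49 and 0.366 CPM, in NS-treated rd10. These counts were too low for the filter, so Ereg was not tested with it in place; with no filter the edgeR adjusted p was 0.000382, with a fitted fold that rests on the prior count. Against a floor of 3 counts in each WT library, it was at least 3.01-fold higher with NS.

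Among the receptors, Egfr, the receptor of all 6 ligands, was at 20.4, 19.8 and 17.9 CPM in WT and at 57.6, 46.9 and 55.7 CPM in NS-treated rd10. The lowest NS-treated library had more than any WT library by a wide margin. Egfr was 2.75-fold higher, a log2 fold change of 1.46 (SE 0.09, edgeR adjusted p = 8.62e-08).

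Erbb3 was at 0.987, 0.94 and 0.751 CPM in WT and at 3.08, 2.4 and 2.61 CPM with NS, without overlap. It was 3.01-fold higher (log2 fold change 1.59, SE 0.25, edgeR adjusted p = 0.00016). On log2(FPKM + 1), a scale that shrinks the change of a gene of such low level, the rise was 0.37 (limma adjusted p = 0.00189), below the limit on the fold change.

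Erbb2 was at 5.07, 5.01 and 4.2 CPM in WT and at 7.67, 5.59 and 6.82 CPM with NS, and Erbb4 at 12.4, 13.3 and 13.6 CPM and at 18.3, 15.6 and 19.5 CPM. NS-treated libraries were higher than WT libraries in both, though replicate 2 of the NS group lay close to WT. The rises were 0.49 for Erbb2 (SE 0.16, edgeR adjusted p = 0.02) and 0.44 for Erbb4 (SE 0.10, edgeR adjusted p = 0.00261) on the log2 scale. With scaling on inner retinal neuron markers they were 0.30 and 0.24 and missed the threshold (edgeR adjusted p = 0.149 and 0.0962), and with all 9 libraries in one fit Erbb2 and Hbegf missed it (edgeR adjusted p = 0.0815 and 0.056). Erbb2 also missed it without WT replicate 3 (0.41, edgeR adjusted p = 0.0745) and without NS replicate 1 (0.37, edgeR adjusted p = 0.0909).

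**Figure D2:**
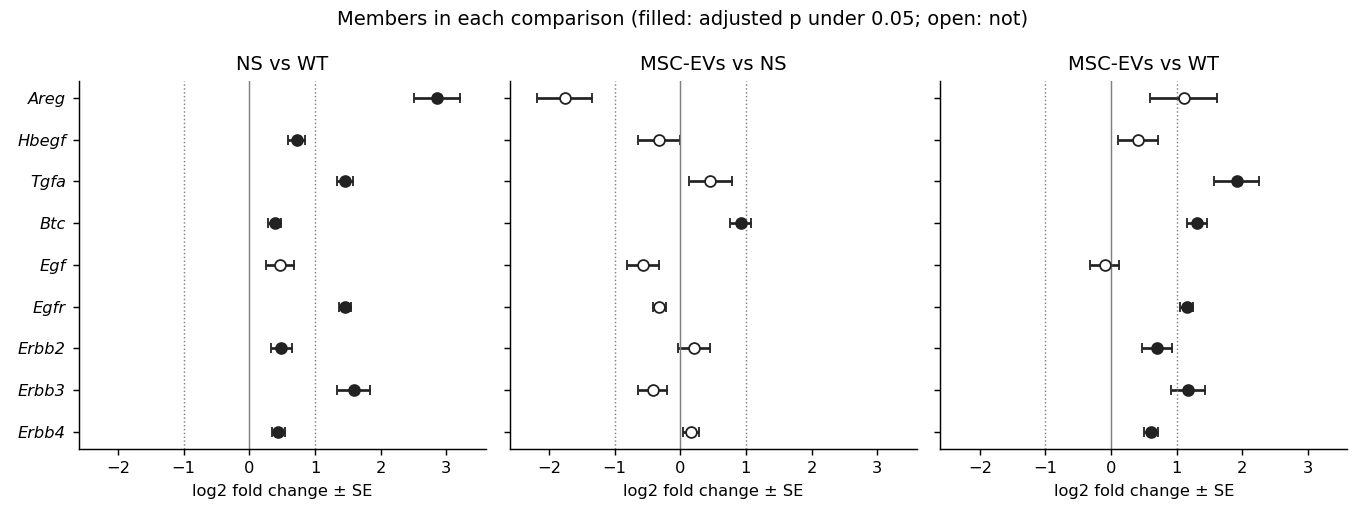
Log2 fold changes of the 9 tested members in the 3 comparisons, with standard errors as bars (filled points have an edgeR adjusted p under 0.05, and dotted lines mark an absolute log2 fold change of 1). With NS against WT, 8 of the 9 points are filled and all lie above 0, whereas with MSC-EVs against NS only Btc, at 0.92, is filled and Areg lies lowest, at -1.76.

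The effect of MSC-EVs was read from the comparison with the NS-treated libraries, which also serve in the comparison above, so the 2 comparisons are not independent. No member was differentially expressed by edgeR's quasi-likelihood test, where 0.061% of the 14765 genes tested were. DESeq2 gave none either, but returned no adjusted p for Areg and Erbb3. At an unadjusted p under 0.05, 4 of the 9 members passed, Btc higher and Areg, Egf and Egfr lower, against 20.2% of all genes (11.6% higher and 8.6% lower). Without the limit on the fold change, Btc alone had an adjusted p under 0.05, as did 1.16% of all genes, with 0.914% higher. The libraries of both groups did not overlap in 5 of the 9 members, Areg, Btc, Egf, Egfr and Erbb3, and in 26.2% of all genes. The median log2 fold change of the 9 was -0.32, against 0 over all genes.

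Areg was at 0.543, 1.75 and 0.777 CPM with MSC-EVs, from 13, 41 and 50 counts, beside 3.35, 4.41 and 2.43 CPM with NS. Each MSC-EVs-treated library was below each NS-treated library, and replicate 2 was the highest of its group. The log2 fold change was -1.76 (SE 0.42, 95% interval -2.70 to -0.82 before adjustment, edgeR adjusted p = 0.0741), so Areg did not pass over all genes. The study picked Areg from these same libraries, and its direction here is therefore not independent evidence. By qPCR, the paper reports a significant decrease of Areg mRNA with MSC-EVs. It does not say whether those retinas were other than the sequenced ones. Without MSC-EVs replicate 2 Areg was differentially expressed (log2 fold change -2.29, edgeR adjusted p = 0.0086), as it was on replicate 3 alone, without the 2 libraries that carry Y-linked expression (-2.11, edgeR adjusted p = 0.041). When Y-linked expression entered as a covariate it was not (-2.12, edgeR adjusted p = 0.135). With all 9 libraries in one fit it was (-1.76, edgeR adjusted p = 0.0268), and likewise with a replicate block. Over all alternatives that gave one, the adjusted p ran from 0.0086 to 0.237.

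Btc moved the other way, at 46.1, 33.1 and 50.2 CPM with MSC-EVs beside 24.1, 24.2 and 20.5 CPM with NS. Every MSC-EVs-treated library was above every NS-treated one, and replicate 2 was the lowest of its group. Btc rose 1.90-fold, a log2 fold change of 0.92 (SE 0.16, 95% interval 0.57 to 1.28 before adjustment, edgeR adjusted p = 0.0401), just below the limit on the fold change. With MSC-EVs replicate 2 left out it passed both limits (1.08, edgeR adjusted p = 0.00183), likewise on replicate 3 alone (1.14, edgeR adjusted p = 0.00762) and with the Y-linked covariate (1.15, edgeR adjusted p = 0.029). When any other single library was left out, the adjusted p was above 0.05, with log2 fold changes from 0.79 to 0.96. With a replicate block the adjusted p of Btc was above 0.05 as well.

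**Figure D3:**
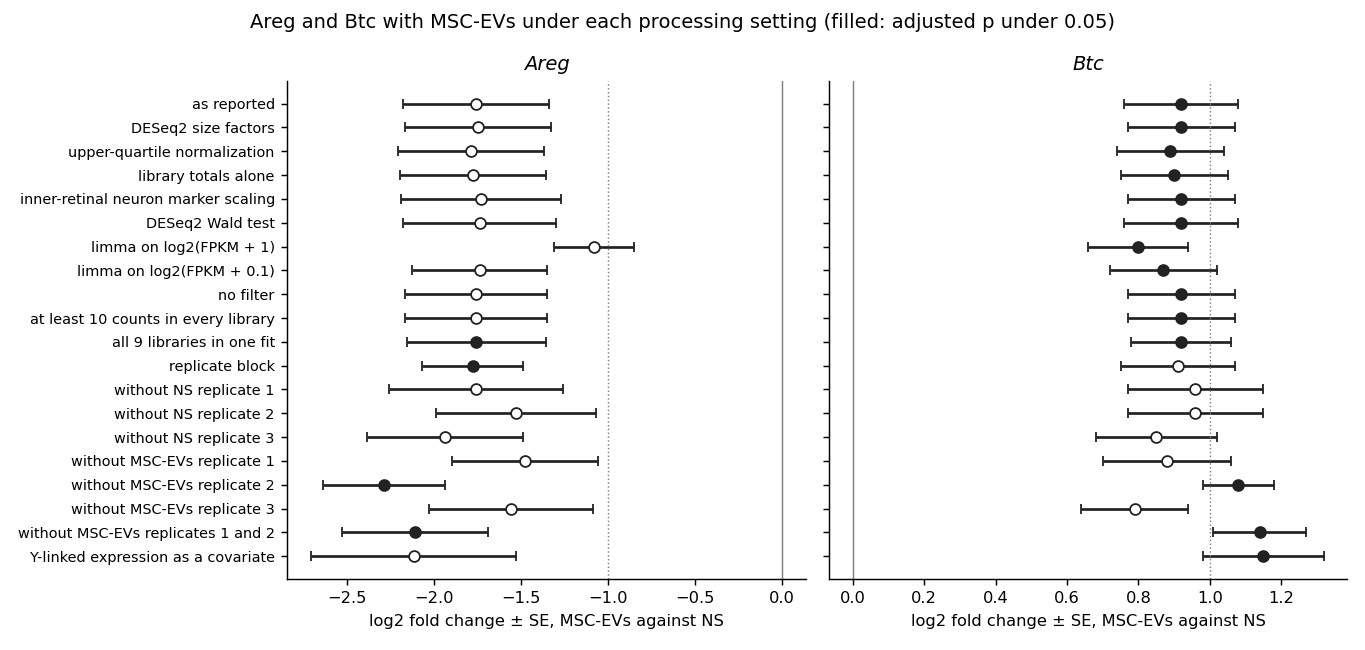
Log2 fold changes of Areg and Btc with MSC-EVs against NS under each processing setting, with standard errors as bars (filled points have an adjusted p under 0.05, and dotted lines mark an absolute log2 fold change of 1). Areg lies between -2.29 and -1.08 and Btc between 0.79 and 1.15, each on 1 side of 0 throughout, while whether the points are filled changes with the libraries that enter.

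The other ligands did not pass the test between the rd10 groups. Hbegf was at 10.5, 23.1 and 11.9 CPM with MSC-EVs, so that 2 libraries lay below all NS-treated libraries and replicate 2 above them. The log2 fold change was -0.32 (SE 0.32, edgeR adjusted p = 0.638), without replicate 2 it was -0.73 (edgeR adjusted p = 0.0271), and on replicate 3 alone -0.65 (edgeR adjusted p = 0.13). Tgfa was at 39.2, 61.3 and 26.3 CPM, again with replicate 2 highest and with replicate 3 inside the range of the NS-treated libraries. Its log2 fold change was 0.46 (SE 0.33, edgeR adjusted p = 0.504), with a 95% interval of -0.37 to 1.28, and it changed sign on replicate 3 alone (-0.22, edgeR adjusted p = 0.556).

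Egf, at 2.84, 3.29 and 2.27 CPM, did not overlap either, since the highest of these values lay just below the lowest NS-treated one, with a log2 fold change of -0.57 (SE 0.24, edgeR adjusted p = 0.215) and, on replicate 3 alone, -0.85 (edgeR adjusted p = 0.21). Ereg had 0, 6 and 1 counts with MSC-EVs, against 12, 10 and 8 with NS, and each of the 3 libraries was below each NS-treated one. Replicate 2 held 6 of these 7 counts. Ereg did not pass the filter over all 6 libraries, and with no filter the log2 fold change was -2.49 (edgeR adjusted p = 0.189). On replicate 3 alone Ereg passed the filter, but only through the NS group. The log2 fold change of -4.45 there rests on 1 count and was not read as a test.

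For the receptors, Egfr was at 46.6, 44.3 and 37.6 CPM with MSC-EVs, all below the NS-treated libraries and all above WT. The log2 fold change against NS was -0.32 (SE 0.10, 95% interval -0.55 to -0.08 before adjustment, edgeR adjusted p = 0.14), and on replicate 3 alone it was -0.50 (edgeR adjusted p = 0.104). Erbb3, at 1.88, 2.35 and 1.83 CPM, was also below every NS-treated library, by a narrow margin for replicate 2 (log2 fold change -0.42, SE 0.22, edgeR adjusted p = 0.323, and on replicate 3 alone -0.55, edgeR adjusted p = 0.387).

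Erbb2, at 8.4, 4.91 and 9.64 CPM, and Erbb4, at 22.3, 19.8 and 17.8 CPM, overlapped with the NS-treated libraries. Their log2 fold changes were 0.21 for Erbb2 (SE 0.25, 95% interval -0.35 to 0.76, edgeR adjusted p = 0.679) and 0.17 for Erbb4 (SE 0.12, 95% interval -0.10 to 0.43, edgeR adjusted p = 0.471). These intervals leave room for modest changes in either direction, and on replicate 3 alone the values were 0.53 and 0.01 (edgeR adjusted p = 0.228 and 0.972). MSC-EVs replicate 2 was the highest of its group in Areg, Hbegf, Ereg, Tgfa, Egf and Erbb3 and the lowest in Btc and Erbb2.

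Against WT, MSC-EVs-treated rd10 retinas differed in 4 members, Tgfa, Btc, Egfr and Erbb3, all higher, where 12.2% of the 14623 genes tested were differentially expressed and 9% were so and higher. Without the limit on the fold change Erbb2 and Erbb4 were added, making 6 of 9, against 55.5% of all genes and 28.3% that rose. Tgfa, Btc, Egfr, Erbb3 and Erbb4 lay above WT without overlap, which was so in 31.9% of all genes. The median log2 fold change of the 9 was 1.11, against 0 over all genes. This comparison shares its WT libraries with the first and its MSC-EVs-treated libraries with the second.

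The members above the WT level were Tgfa, with a log2 fold change of 1.91 (SE 0.34, edgeR adjusted p = 0.00493), Btc, with 1.31 (SE 0.15, edgeR adjusted p = 0.000192), Erbb3, with 1.17 (SE 0.26, edgeR adjusted p = 0.00394), and Egfr, with 1.15 (SE 0.10, edgeR adjusted p = 1.18e-05). On replicate 3 alone, a single library against WT, Tgfa was at 1.24, Btc at 1.53 and Erbb3 at 1.04. Erbb2 was at 1.02 there, Erbb4 at 0.45 and Egfr at 0.96, just under the limit on the fold change. Egfr was also just under it, at 0.98, with scaling on inner retinal neuron markers. With all libraries, Erbb4 was at 0.61 (edgeR adjusted p = 0.00083) and Erbb2 at 0.70 (edgeR adjusted p = 0.0286), the latter with replicate 2 inside the WT range. Erbb2 missed the threshold with scaling on inner retinal neuron markers (0.50, edgeR adjusted p = 0.0535) and without WT replicate 1, 2 or 3 or MSC-EVs replicate 1 or 3 (edgeR adjusted p = 0.0688, 0.0722, 0.112, 0.0848 and 0.0864).

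Areg overlapped with WT in this comparison, since MSC-EVs replicate 1 lay between 2 of the WT libraries. Its log2 fold change was 1.11 (SE 0.51, 95% interval -0.03 to 2.26, edgeR adjusted p = 0.0896). The interval holds both the WT level and a rise of 2.26 on the log2 scale. Hbegf, at 0.41 (SE 0.31, edgeR adjusted p = 0.304), and Egf, at -0.10 (SE 0.22, edgeR adjusted p = 0.723), also overlapped with WT. On replicate 3 alone Areg was at 0.75, Hbegf at 0.07 and Egf at -0.38.

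The levels of different genes were compared by FPKM, which scales for transcript length. In WT the order was Btc at 5.62 ± 0.527 FPKM (SD, n = 3), Hbegf at 4.43 ± 0.307, Tgfa at 2.29 ± 0.0351, Egfr at 1.8 ± 0.185, Erbb4 at 1.06 ± 0.0874, Erbb2 at 0.877 ± 0.0924, Egf at 0.743 ± 0.095, Areg at 0.35 ± 0.147, Erbb3 at 0.137 ± 0.0231 and Ereg, listed at 0. Of these neighbours only Erbb2 and Egf overlapped in range. In NS-treated rd10, Btc at 8.36 ± 0.759, Hbegf at 8.3 ± 1.45, Tgfa at 7.08 ± 1.15 and Egfr at 5.65 ± 0.669 FPKM each overlapped with the next, and Areg followed at 2.92 ± 0.852 FPKM, apart from its neighbours on both sides. Areg thus moved from rank 8 to rank 5. Below it came Erbb4 at 1.66 ± 0.258, Erbb2 at 1.4 ± 0.212 and Egf at 1.18 ± 0.293, which overlapped in turn, then Erbb3 at 0.47 ± 0.0557 and Ereg at 0.103 ± 0.0153 FPKM.

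With MSC-EVs, Btc led at 15.5 ± 3.16 FPKM, followed by Tgfa at 9.67 ± 4.07, Hbegf at 6.61 ± 3.03 and Egfr at 4.59 ± 0.516, each overlapping with the next. Erbb4 at 1.92 ± 0.296, Erbb2 at 1.58 ± 0.5, Areg at 0.87 ± 0.546 and Egf at 0.783 ± 0.172 FPKM formed a second run of overlapping neighbours. Erbb3 at 0.343 ± 0.0493 and Ereg at 0.02 ± 0.0346 FPKM came last and did not overlap. Areg stood at rank 7, between Erbb2 and Egf and not separable from either.

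The 6 ligands summed to 13.4 ± 0.838 FPKM in WT, 27.9 ± 2.13 in NS-treated rd10 and 33.5 ± 4.45 with MSC-EVs (SD, n = 3), and the 4 receptors to 3.87 ± 0.26, 9.18 ± 1.16 and 8.43 ± 0.707 FPKM. Areg made up 3.85%, 2.71% and 1.38% of the ligand sum in WT, 10.2%, 12.7% and 8.16% with NS and 1.46%, 3.86% and 2.18% with MSC-EVs. Its share was thus higher in every NS-treated library than in any other library, and it overlapped between WT and MSC-EVs. Btc made up 41.8% ± 1.39, 29.9% ± 0.985 and 47.7% ± 14.8 of the ligand sum in WT, NS and MSC-EVs, where its share in MSC-EVs replicate 2, 31%, was at the level of the NS group. Among the receptors, Egfr had 46.5% ± 2.45, 61.7% ± 0.569 and 54.4% ± 4.13. These shares sum to a whole within each library, so a rise of one member lowers the others.

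**Figure D4:**
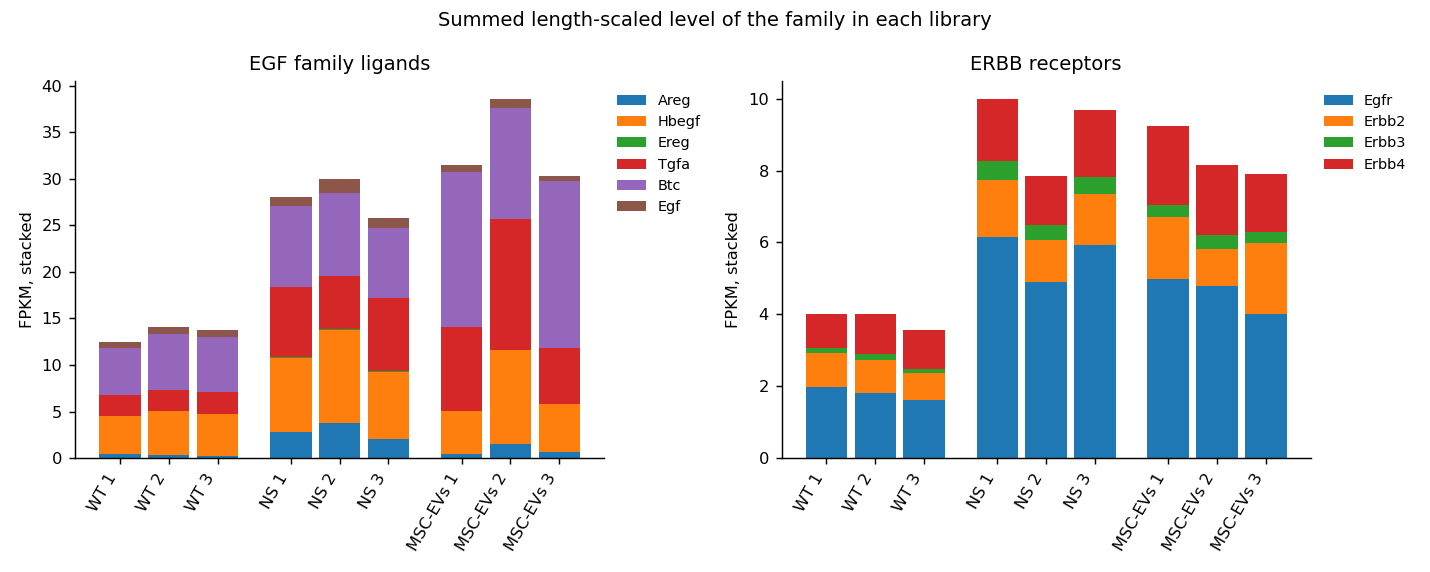
FPKM of the 6 ligands (left) and the 4 receptors (right), stacked for each library on a linear axis from 0; Ereg is too low to be seen. Ligand sums lie at 12.5 to 14 FPKM in WT and at 25.7 FPKM or more in every rd10 library, and the Areg part is largest in the 3 NS-treated libraries.

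The remaining ligands of the family are epigen and the neuregulins. Epgn, in the same block of chromosome 5, had no count in any library. The neuregulins, which bind ERBB3 and ERBB4, were expressed throughout. With NS against WT, Nrg1 rose by 0.42 (SE 0.11, edgeR adjusted p = 0.00492) and Nrg3 by 0.71 on the log2 scale (SE 0.10, edgeR adjusted p = 7.93e-05), while Nrg2 at 0.17 (edgeR adjusted p = 0.482) and Nrg4 at -0.59 (edgeR adjusted p = 0.0719) did not pass. Between the rd10 groups none of the 4 tested had an adjusted p under 0.05, with log2 fold changes of 0.15 for Nrg1, 0.16 for Nrg3, 0.05 for Nrg4 and 0 for Nrg2 (0.20, -0.04, -0.15 and 0.03 on replicate 3 alone).

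Of the genes that act around the receptors, 96 were tested between WT and NS-treated rd10, and 14 were differentially expressed, all higher, where 12.7% of all genes were and 9.16% were so and higher. Without the limit on the fold change 53 rose and 11 fell, where 31.2% and 30.1% of all genes did, and their median log2 fold change was 0.23. The 10 genes of ligand shedding had a median of 0.10, with 5 that rose and 1, Bace1, that fell. Rhbdf1, which encodes an inactive rhomboid that escorts ADAM17, rose by 1.29 (edgeR adjusted p = 3.04e-05) and the metalloprotease Adam12 by 1.55 on the log2 scale (edgeR adjusted p = 3.22e-05), while the sheddases Adam17, at -0.02 (edgeR adjusted p = 0.816), and Adam10, at 0.22 (edgeR adjusted p = 0.0177), were not differentially expressed. Of the 18 receptor inhibitors tested, 10 rose and 1 fell, with a median of 0.19, and Spry1, a feedback inhibitor of receptor tyrosine kinase signalling, was the only one differentially expressed (1.35, edgeR adjusted p = 5.6e-07). Of the 40 adaptors and kinases, 19 rose and 7 fell, with a median of 0.12, and Plcg2, a phospholipase C that is strong in myeloid and B cells, was differentially expressed (1.42, edgeR adjusted p = 0.000154).

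The 24 ERK response genes, the immediate-early and feedback genes that growth factors and many other stimuli switch on, had a median of 0.62. Of these, 17 rose and 2, the phosphatases Dusp1 and Dusp4, fell, and 10 were differentially expressed, all higher, beside 9.16% of all genes called higher and 31.2% that rose. Plaur, the urokinase receptor, had 4, 1 and 6 counts in WT and 192, 141 and 85 counts with NS and rose by 5.03 on the log2 scale. Fosl1, a partner of the JUN proteins, had 0 counts in each WT library and 219, 118 and 98 with NS, at least 42.2-fold higher against a floor of 3 counts per library. The WT libraries of both genes lay at or near 0, and Egr2 was at 0.314 to 0.45 CPM in WT. Fosl1, Plaur and Egr2 passed the filter only through the NS group, so their rise was not read as a test. This limit also holds for the count of all pathway genes given above. With at least 10 counts required in every library, Fosl1, Plaur and Egr2 were not tested. Atf3, Dusp6, Egr3, Fosb, Junb, Maff and Myc were still differentially expressed there. Microglia and infiltrating myeloid cells express genes of these lists too. Their marker sums, given above for microglia and below for infiltrating cells, rose in the same comparison, and their part was not tested.

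Between the rd10 groups, none of the 96 pathway genes was differentially expressed by edgeR or by DESeq2, while 18 were higher and 2 lower at an unadjusted p under 0.05, where 11.6% and 8.6% of all genes were, and their median log2 fold change was 0.06. Adjusted p was under 0.05 for 3 genes (1.16% over all genes), named here after their values were seen, all higher with MSC-EVs. These were the adaptor Shc3, from 4.26, 2.94 and 4.03 CPM with NS to 7.15, 6.74 and 8.32 CPM (log2 fold change 0.99, edgeR adjusted p = 0.0441), the ubiquitin ligase Cbl, from 95.3, 81 and 81.6 to 125, 128 and 114 CPM (0.51, edgeR adjusted p = 0.0261), and the phosphatase Ptpn1, from 58.1, 60.9 and 57.2 to 92.5, 88.3 and 76.5 CPM (0.55, edgeR adjusted p = 0.0252). None of the 3 overlapped between the groups. On replicate 3 alone the values were 1.15 for Shc3 (edgeR adjusted p = 0.0491), 0.42 for Cbl (0.106) and 0.39 for Ptpn1 (0.0736), so Cbl and Ptpn1 then missed the threshold. The ERK response genes had a median of -0.06, and Plaur, at 2.42, 9.3 and 1.68 CPM with MSC-EVs against 6.49, 6.91 and 3.89 CPM with NS, was highest in replicate 2, as was Fosl1 with 17.4, 351 and 13.8 counts. Without replicate 2, 6 pathway genes were differentially expressed, Egr3, Fosl1, Maff, Myc, Plaur and Shc3. The share of all genes in that setting is not given here. On replicate 3 alone Shc3 was higher (1.15), while Egr3, Fosl1, Maff, Myc and Plaur were lower (-1.38, -4.73, -1.53, -1.5 and -1.77). These are effect sizes from 1 library and not a second call of the same genes. Egr2, not among the 6, was at -1.75 there, while Atf3, at 0.67, and Fosb, at 0.4, were higher.

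Against WT, 12 of the 95 pathway genes tested with MSC-EVs were differentially expressed, all higher, beside 12.2% of all genes and 9% called higher, and 52 rose and 9 fell without the limit on the fold change, where 28.3% and 27.2% of all genes did, and the median was 0.29. They held Rhbdf1 (1.41, edgeR adjusted p = 9.64e-05) and Adam12 (1.60, edgeR adjusted p = 0.000226) among the shedding genes, Spry1 (1.27, edgeR adjusted p = 0.00029) and the receptor phosphatase Ptprj (1.13, edgeR adjusted p = 0.000345) among the inhibitors, and Plcg2 (1.55, edgeR adjusted p = 0.000294) among the adaptors and kinases. The other 7 were ERK response genes, led by Plaur (4.65) and the transcription factor Egr2 (3.66). Plaur and Egr2 passed the filter only through the MSC-EVs group, so their rise was not read as a test. The count of 12 includes both. On replicate 3 alone, Ptprj (0.83) and Myc (0.84) were under the limit on the fold change, Gab1 (1.03) above it, Plaur at 3.27 and Egr2 at 1.87.

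**Figure D5:**
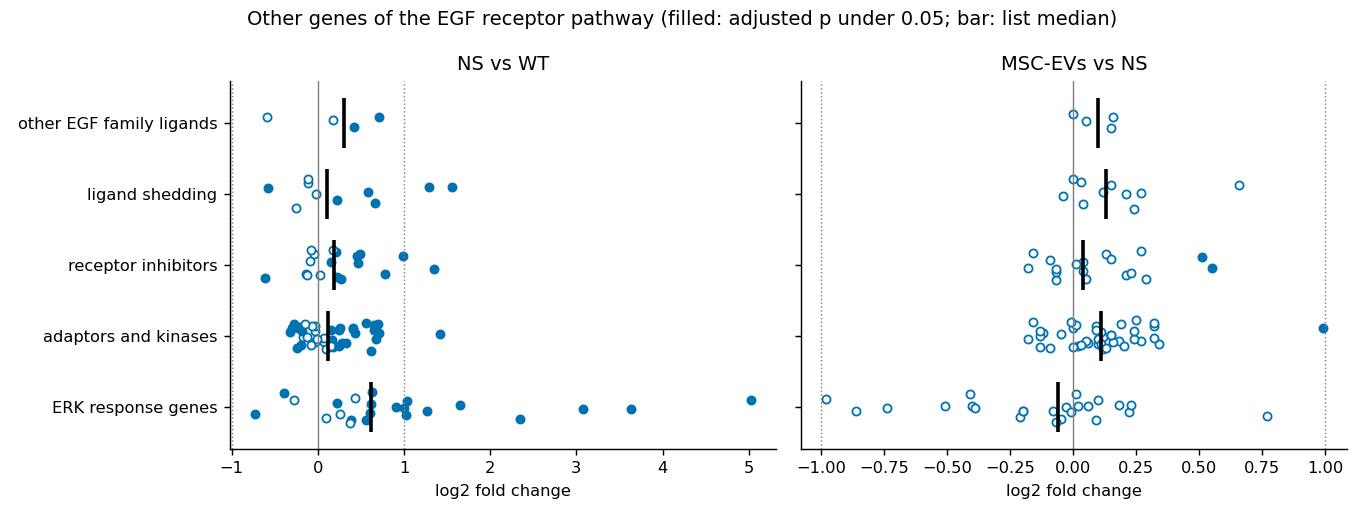
Log2 fold changes of the pathway genes in each list with NS against WT (left) and with MSC-EVs against NS (right), where each point is a gene, bars are list medians and filled points have an edgeR adjusted p under 0.05; Fosl1, at 0 counts in WT, is left out on the left. ERK response genes reach 5.03 on the left, and on the right the filled points are the 3 genes Shc3, Cbl and Ptpn1.

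Markers of other cells that a dissected retina could hold were summed as well, and their part in the results was not tested. The 10 markers of cornea and conjunctiva epithelium summed to 2.75 to 3.19 CPM in WT, 3.63 to 3.71 CPM with NS and 2.97 to 4.45 CPM with MSC-EVs, with Krt14 at 0 to 2 counts in every library. Krt5, Krt6a, Krt4 and Krt13 had 27, 19, 15 and 10 counts in MSC-EVs replicate 3, the deepest library, and at most 5 in any other. Krt12 had 39 counts there and at most 11 elsewhere. By CPM, Epcam, Cdh1, Trp63 and Muc4 were higher in other libraries. All values on replicate 3 alone rest on this library. The 8 markers of infiltrating monocytes and neutrophils summed to 0.25 to 0.492, 6.86 to 19.7 and 4.23 to 17.1 CPM. In WT 4 of these were at 0, and Elane was at 0 in every library. The 4 that passed the filter, Ccr2, Ly6c2, Plac8 and Itgal, did so only through the NS group, with at most 8 counts in any WT library. Their log2 fold changes with NS against WT, 5.14, 6.74, 7.03 and 3.52, were therefore not read as tests. The 8 markers of retinal pigment epithelium summed to 58.7, 106 and 87.3 CPM in WT, 260, 64.1 and 178 CPM in NS-treated rd10 and, after MSC-EVs, 89.9, 76.1 and 218 CPM, with none at 0, and 3 of them were differentially expressed and higher with NS than in WT. Within both rd10 groups replicate 2 had the lowest sum and the lowest Erbb2. In WT, replicate 1 had the lowest sum, 58.7 CPM, but the highest Erbb2, 5.07 CPM. Markers of endothelium and pericytes summed to 306 to 322, 532 to 537 and 468 to 570 CPM, and those of fibroblasts to 26.7 to 29.6, 66 to 71.1 and 65.8 to 69.3 CPM. The 4 astrocyte markers summed to 72 to 83.2, 275 to 466 and 434 to 583 CPM. Most of the rd10 sums was Gfap, also a gliosis marker, at 206 to 381 CPM with NS and 381 to 511 CPM with MSC-EVs. With NS against WT, Pax2 (1.45) and Aldh1l1 (1.8) rose, while S100b was at 0.12 on the log2 scale (edgeR adjusted p = 0.448). Ciliary body and iris markers summed to 464 to 470, 513 to 544 and 432 to 475 CPM. With NS against WT 5 of them rose, among them Pax6 (0.56), and 1 fell, Aqp1 (-1.87). Lens markers summed to 26.3 to 119, 33.6 to 40.7 and 10.4 to 101 CPM.

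Genes whose expression followed that of Areg most closely were ranked by Pearson's r on log2(CPM + 0.5), as a description over libraries that share their groups and depths. Over all 9 libraries and 14907 genes, these were Dach1 (0.987), Tox (0.985), Sntb1 (0.982), Arhgef19 (0.977) and Mfap4 (0.975). Like Areg, the first 4 were higher in every NS-treated library than in any other, while Mfap4 overlapped between the rd10 groups, and Dach1, at 51.7 to 60.6 CPM in WT and 83.6 to 90.5 CPM with NS, spanned a far smaller range than Areg. Over the 6 rd10 libraries the closest were Eln (0.998), Plppr3 (0.994), Swi5 (0.993), Tmem106c (0.991) and Mrc2 (0.991). Among the members, Hbegf (0.855), Erbb3 (0.852), Egfr (0.775) and Egf (0.716) were nearest to Areg over all 9 libraries, ahead of Tgfa (0.545), Erbb4 (0.348), Erbb2 (0.186) and Btc (0.00303). Within rd10, Egf (0.852), Erbb3 (0.832) and Hbegf (0.82) were nearest, and Btc, at -0.895, ran opposite to Areg.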

How the data were processed

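RNA-seq of 9 whole-retina libraries was read from 1 deposited table, in which the authors gave an estimated count, not scaled to library size, and an FPKM value, scaled for transcript length and depth, for each of 22337 genes. The submitters' processing notes name fastp, Bowtie2, HISAT2, StringTie 1.3.1 and RSEM. The genome build and annotation are not given in the sources used here, and positions were taken from GRCm38 (GENCODE M21). Groups came from the sample titles. Between 9.16% and 11.7% of the genes of a library carried decimals, so the estimated counts were rounded, where unscaled whole counts had been planned for.

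Every comparison used the 6 libraries of its 2 groups and edgeR 4.0.16 under R 4.3.3 (filterByExpr, TMM, robust glmQLFit, glmQLFTest) over all genes, with Benjamini-Hochberg adjustment. The standard error is the absolute log2 fold change divided by the square root of F, and 95% intervals use the fit's t distribution. The paper names no test for its sequencing data. The fit was tested on simulated counts. A single count stood for 0.0155 to 0.05 TMM-scaled CPM, and floors cover counting error only.

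The members, gene lists and marker lists were chosen with earlier results of these data known. Named were all members and other EGF family ligands; in each pathway list every differentially expressed gene where there were 4 or fewer, otherwise the 2 with the largest rise and the 2 with the largest fall; and the 5 genes most correlated with Areg. Spry3, 1 of the 98 pathway genes listed, is not in the table, and Epgn had no counts. Lists are described by counts and medians. Alternatives were other scalings, filters and tests (DESeq2 1.42.0, limma 3.58.1 on log2(FPKM + 1) and log2(FPKM + 0.1)), all libraries in one fit, a replicate block, libraries left out, and Y-linked expression as a covariate.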

Additional observations from a re-analysis of the deposited data

How the results depend on the processing

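With NS against WT, no log2 fold change of a member changed sign under any alternative. The members with an adjusted p under 0.05 numbered 8, and 5 with scaling on inner retinal neuron markers, where Btc, Erbb2 and Erbb4 were lost, 6 with all 9 libraries in one fit, and 9, with Egf, with library totals alone and under both limma settings. That scaling moved the median of all genes by -0.19 and library totals alone by 0.18 on the log2 scale, and the share of differentially expressed genes that were higher was 72% with TMM, 56.9% and 83.3%. Against WT with MSC-EVs the shifts were -0.18 and 0.15 and the shares 73.8%, 58.8% and 82.1%. With NS against WT, 8972 of all 14644 genes had an adjusted p under 0.05, and 8712 with scaling on inner retinal neuron markers. With all 9 libraries in one fit it was 8599 of 14908 genes. Library totals alone gave 8973 of 14644, and limma on log2(FPKM + 1) and log2(FPKM + 0.1) gave 8437 and 8472. Leaving out single libraries gave 4 to 5 differentially expressed members with NS against WT, the fifth being Ereg, which is at 0 in WT and passed the filter only through the NS group, and 4 in each case with MSC-EVs against WT. No share over all genes is given for the fits with single libraries left out. With at least 10 counts in every library Areg was not tested against WT.

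Between the rd10 groups the number of differentially expressed members was 0. It was 1 with all 9 libraries in one fit (Areg), 1 with the Y-linked covariate (Btc), and 2 without MSC-EVs replicates 1 and 2 (Areg and Btc), where the remaining library is assumed to vary like the other group. Leaving out single libraries gave 0 to 2, the 2 without MSC-EVs replicate 2, and 0 to 3 members with an adjusted p under 0.05, from 1 with all libraries; it was 2 with all 9 in one fit and 2 without replicates 1 and 2. The pathway genes numbered 0, with 0 to 6 when single libraries were left out. The 6 came without MSC-EVs replicate 2. With all 9 libraries in one fit, 38 of all 14908 genes were differentially expressed and 1026 had an adjusted p under 0.05. In the fit of the rd10 groups alone these were 9 and 172 of 14765 genes. For fits with libraries left out or with the covariate, no share over all genes is given. Their counts are therefore not read as results about the members or the pathway. The cause of the differences between settings was not tested.

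Same-numbered libraries of the rd10 groups deviated together with correlations of 0.089, 0.197 and 0.284, and those of NS and WT with 0.0645, -0.0744 and -0.0553. In the rd10 groups 6 of 6 libraries correlated best with their own number. The same held for 6 of 6 between MSC-EVs and WT, with correlations of 0.0734, 0.0289 and 0.0234, and for 2 of 6 between NS and WT. The paper says that MSC-EVs or NS went to rd10 littermates, but the labels name no pairs. The numbers were therefore not taken as pairs. With a replicate block Areg was the 1 differentially expressed member between the rd10 groups (-1.78, edgeR adjusted p = 0.032), and the adjusted p of Btc was 0.0525. The block gave 4 members and 14 pathway genes with NS against WT and 4 and 12 with MSC-EVs against WT. Over all genes it gave 21 of 14765 between the rd10 groups, 1861 of 14644 with NS against WT and 1790 of 14623 with MSC-EVs against WT.

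Signs changed only in values that had not passed a test. Between the rd10 groups Tgfa was at -0.22 without MSC-EVs replicates 1 and 2 and at -0.21 with the Y-linked covariate, and Erbb2 ranged from -0.01 (without MSC-EVs replicate 3) to 0.44 when single libraries were left out. Against WT, Hbegf with MSC-EVs ranged from -0.01 (without MSC-EVs replicate 2) to 0.62 when single libraries were left out, and Egf was at 0.06 with library totals alone, 0.03 and 0.05 with limma on log2(FPKM + 1) and log2(FPKM + 0.1), and at -0.24 to 0.05 when single libraries were left out, with 0.05 without MSC-EVs replicate 3. With MSC-EVs against WT, limma on log2(FPKM + 1) left 2 members, Btc and Tgfa, and the pathway genes numbered 21 with library totals alone and 21 with limma on log2(FPKM + 0.1), against 12. Of all 14623 genes, 1002, 1953 and 1795 were differentially expressed in these settings, in the same order, against 1784. Areg, Ereg and Erbb3 rest on the fewest counts, and a change of a few counts in Ereg could not be seen at this depth.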
